A study of Homo sapiens with 6 samples.

Results

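The ribosome biogenesis genes are the 77 genes, of 20036 in the deposited table, that its pathway annotation places under ribosome biogenesis in eukaryotes (ko03008). No gene with a name starting with RPL or RPS carried that annotation, so none had to be left out. The cells were PANC-1, a long-used line from a human pancreatic carcinoma. RNA was sequenced in 3 libraries of cells given a null control virus and 3 of cells given a lentivirus knocking down SHMT2, the mitochondrial serine hydroxymethyltransferase. The labels give no shRNA sequence, dose, selection or time after delivery. They also do not say whether replicates were separate cultures, so p-values measure only library-to-library spread, which may be technical. The question is how the machinery that builds ribosomes differs in cells given the knockdown virus.

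Ribosomes are assembled in the nucleolus around a long precursor RNA. Small nucleolar ribonucleoproteins (snoRNPs) modify that precursor, the small subunit processome folds and cuts it, and nucleases trim the products. GTPases, ATPases and export factors then carry the large and small subunits to the cytoplasm. Proliferating tumour cells are known for high demand on this pathway. In bulk RNA, fewer cells expressing a gene and less of its RNA per cell cannot be told apart.

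SHMT2 checked the labels: its level was 146 ± 11.4 CPM in control and 5.19 ± 1.74 CPM in knockdown libraries (mean ± SD, n = 3; CPM is the read count scaled for library size with TMM factors). Library totals ran from 15405884 to 19075734 counts. The epithelial markers KRT8, KRT18, EPCAM and CDH1 together had 18345 to 41483 counts per library, nearly all from the keratins. KRT8 was higher (149% of the control mean), CDH1 was higher from a low level (0.937 to 3.97 CPM) and EPCAM was lower (38.4%) in the knockdown libraries, and their part in the results was not tested. CDKN2A and CDKN2B, a locus known to be deleted in PANC-1, had 0 in every library. The 16 markers of immune, fibroblast, endothelial, acinar and endocrine cells were at or near 0, with at most 8 counts per list and library. In each group 1 library, control replicate 1 and knockdown replicate 2, differed from the rest. The chi-square per gene was 25.4 and 30.4 between control replicate 1 and the other controls against 2.06 between those. It was 75.0 and 76.5 against 2.46 in the knockdown group. Results are therefore also given without these libraries, in a fit of 2 libraries against 2 whose remaining pairs differed little, so that many more genes pass there.

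Of the 77 members, 72 had enough counts to be tested. UTP14C, NXF2 and NXF2B had 0 counts in every library, NXF3 had 0 to 2, and FBLL1, a relative of fibrillarin, had at most 16. In edgeR's quasi-likelihood test, adjusted over all tested genes by Benjamini-Hochberg, 28 members passed an adjusted p of 0.05 as lower in the knockdown libraries (all genes: 25.1%) and 2 as higher (all genes: 26.7%, and 51.8% in either direction). The other 42 had no call, 22 of them with a fold change below and 20 above 0. The median log2 fold change of the 72 was -0.25, where that of all 12292 tested genes was 0.00. Among the 28, the knockdown mean ran from 38.0% to 80.5% of the control mean, and 5 fell at least 2-fold. Values of the groups did not overlap for 30 members on the lower side (all genes: 30.2%) and 2 on the higher side (all genes: 31.3%, and 61.4% on either side).

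Without control replicate 1 and knockdown replicate 2 together, 42 members were lower (all genes: 36.7%) and 18 higher (all genes: 36.9%, and 73.6% in either direction), and the median was -0.23. All 28 lower and both higher members kept their call there, and 14 more were lower and 16 more higher. When each library was left out in turn, 22 of the 28 stayed called every time. POP7, SBDS, GNL3, IMP3, NXT1 and WDR3 each lost the call at least once, and so did XPO1 among the 2 higher members.

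**Figure D1:**
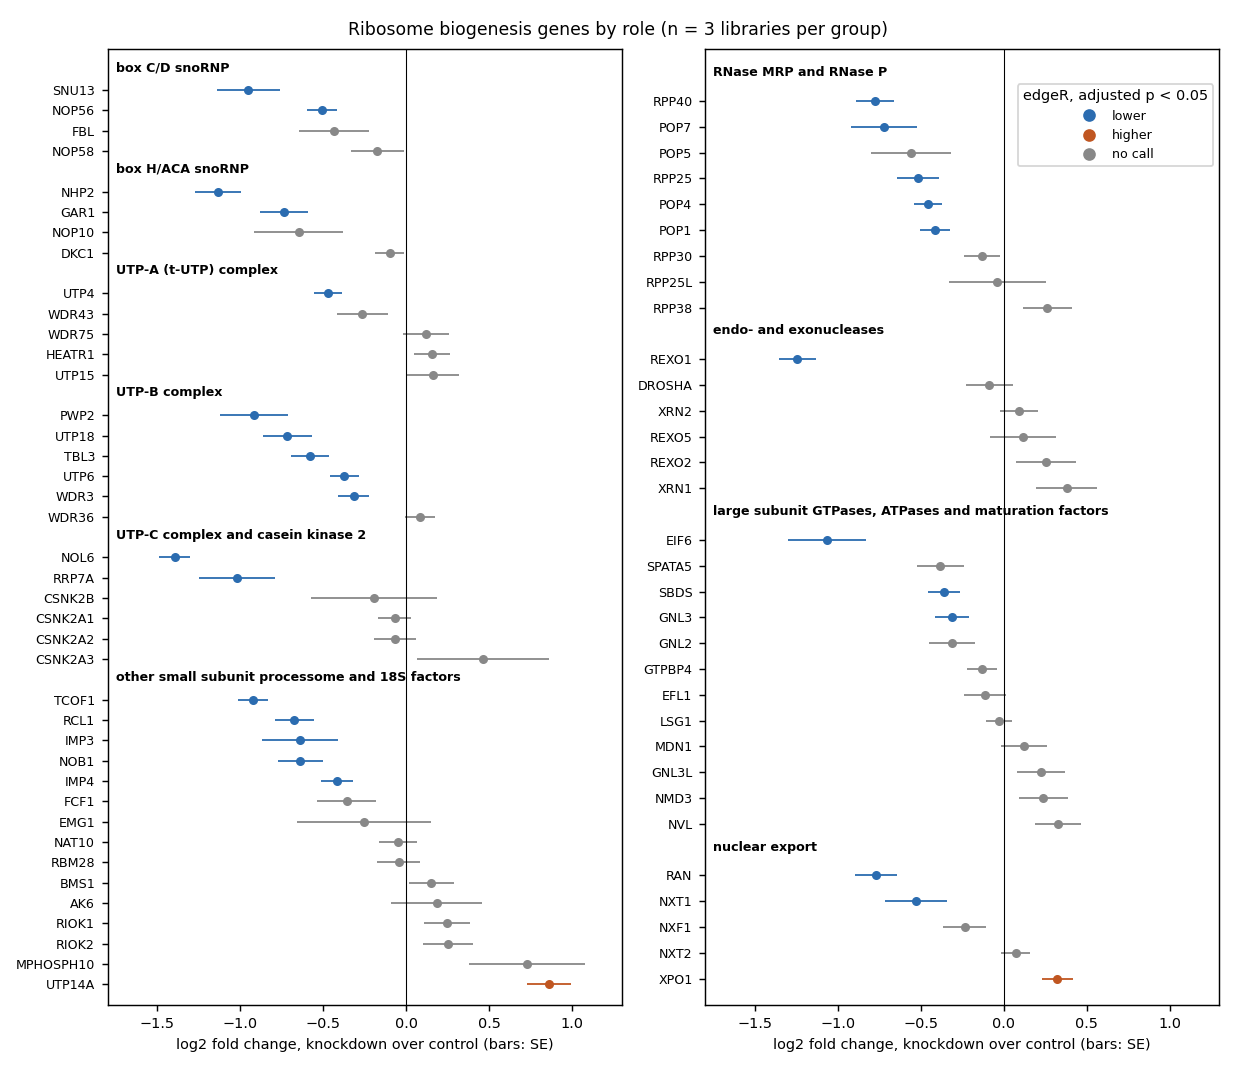
Log2 fold change of knockdown over control (x axis) for the 72 tested members, ordered by role, with points as edgeR estimates and bars as standard errors (n = 3 libraries per group). The 28 called lower members lie between -1.40 and -0.31, and UTP14A (0.86) and XPO1 (0.32) are the called higher ones.

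**Figure D2:**
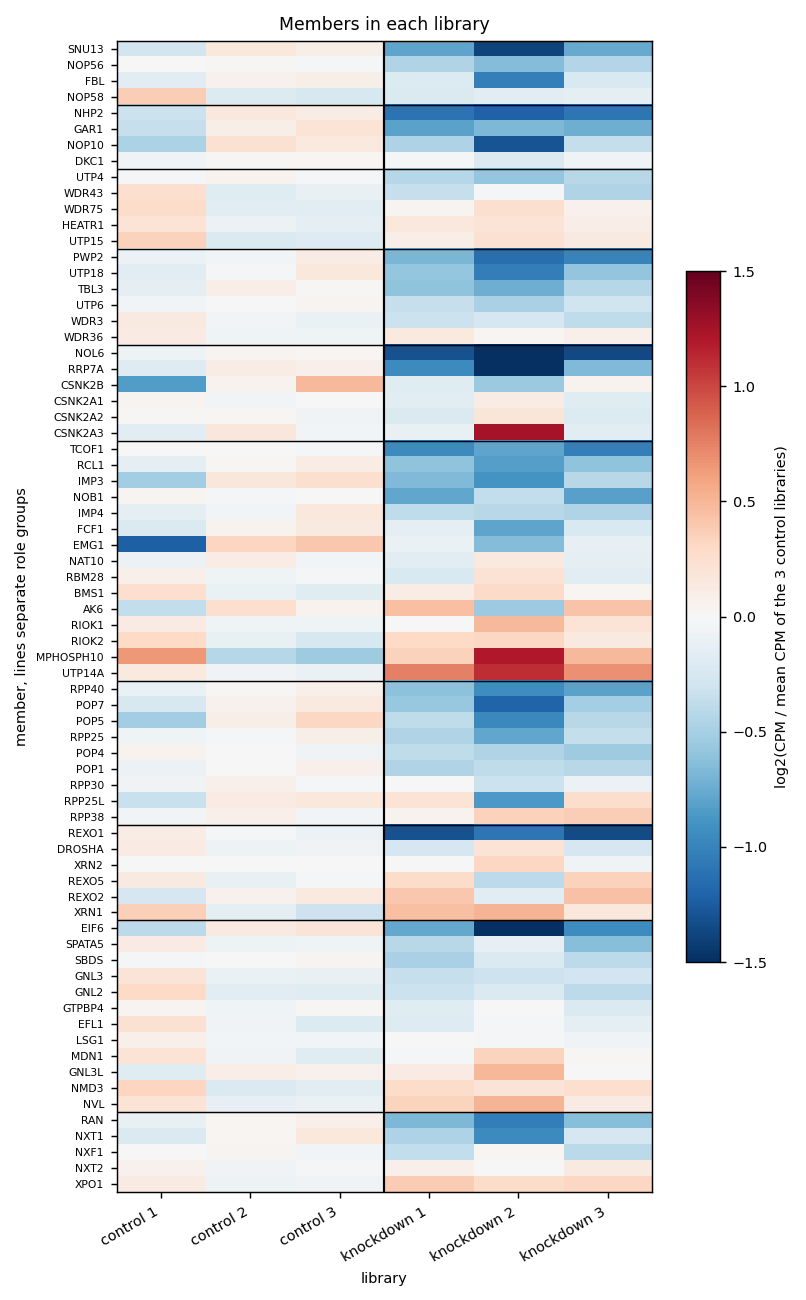
Each tested member (rows, grouped by role) in each library (columns), coloured by log2 of its CPM over the mean CPM of the 3 control libraries; the colour scale ends at -1.5 and 1.5. NOL6, REXO1, NHP2 and TCOF1 are low in all 3 knockdown libraries, while the libraries of control replicate 1 and knockdown replicate 2 look unlike the other columns of their group in many rows.

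Promoters were searched for short motifs, which the annotation did not use. RefSeq windows of 300 bases (250 before to 50 after a start, GRCh38.p14) were matched for 72 members by gene identifier. The palindrome CACGTG, an E-box, was present in a window of 22 of these (30.6%), against 12.6% of 10111 tested genes and 8.77% of all 27305 genes with a window. Windows of 10 of 25 lower members, both higher members and 10 of 40 members without a call held it, and those of the 5 members not tested did not. CCGGAAGT, read on both strands, was in 20.8% of members and 10.2% of tested genes, TTCCCGC in 6.94% and 12.9%, and the palindromic ZBTB33 motif in 0 members and 1.03% of tested genes. Overlap between motifs was not removed, and a match describes letters, not a bound site. The 30 bases around CACGTG are printed for NOL6, the member with the largest fall, for the lower members UTP4, RAN and UTP18, and for the higher member XPO1, to show that the motif stood in members of either direction. All read 5′ to 3′ on the strand of the gene, with CACGTG in capitals and coordinates in GRCh38.p14.
NOL6, chr9:33473894-33473923, minus strand: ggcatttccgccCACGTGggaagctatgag
UTP4, chr16:69132621-69132650, plus strand: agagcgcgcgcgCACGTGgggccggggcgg
RAN, chr12:130871952-130871981, plus strand: gcacgcgcgggcCACGTGggcgggcgccgc
UTP18, chr17:51260445-51260474, plus strand: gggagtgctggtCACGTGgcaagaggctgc
XPO1, chr2:61537114-61537143, minus strand: gtccgcctgcatCACGTGgccccctcggtg
The motif shown began 16, 102, 89 and 44 bases before the start in UTP4, RAN, UTP18 and XPO1, where UTP18 held another at base 5 of the transcript, and at base 14 of the transcript in NOL6.

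Subunits of the snoRNPs were lower or had no call. All 8 tested subunits had a log2 fold change below 0, and their median was -0.58. With all libraries 4 were called lower and 0 higher (all genes: 25.1% and 26.7%). No subunit was higher at an unadjusted p below 0.05 in edgeR or by DESeq2. Without the libraries that stood apart, 6 were lower and 0 higher (all genes: 36.7% and 36.9%). Box C/D snoRNPs place methyl groups on ribosomal RNA and box H/ACA snoRNPs convert uridine to pseudouridine. NHP2 (ENSG00000145912), an H/ACA core protein, stood at 84.3, 118 and 115 CPM in control replicates 1 to 3 and at 49.0, 45.8 and 49.7 CPM in knockdown replicates 1 to 3, the order used throughout. Every knockdown library lay below every control library, a fall to 45.5% of the control mean (log2 fold change -1.13, SE 0.14, adjusted p = 0.000506, edgeR). An opposite-strand gene, RMND5B, shares 27.4% of the exon bases of NHP2. GAR1, which binds the same particle, fell from 81.9 ± 15.6 to 49.2 ± 2.20 CPM (SD, n = 3).

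DKC1, the pseudouridine synthase of the H/ACA particle, was not called. It had 366, 383 and 386 CPM in the control and 370, 325 and 364 CPM in the knockdown libraries, and its 95% interval on the log2 scale ran from -0.30 to 0.10. NOP10, the smallest subunit, had 95.7, 156 and 146 against 96.2, 53.9 and 103 CPM, with the lowest value of each group in the library that stood apart and no call (adjusted p = 0.0754, edgeR). Without those libraries it was called lower, at -0.59 on the log2 scale. In FPKM, which also scales for gene length, the controls had NOP10 at 81.6 ± 19.6, NHP2 at 69.6 ± 12.0, GAR1 at 40.5 ± 7.50 and DKC1 at 40.0 ± 0.951 (SD, n = 3), where GAR1 and DKC1 did not differ beyond their spread. In the knockdown libraries the FPKM were 55.6 ± 19.4, 33.6 ± 2.88, 25.7 ± 0.640 and 39.5 ± 4.33.

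Among the box C/D proteins, SNU13, which binds the kink-turn of the guide RNA, fell to 51.6% of its control mean, from 116 ± 17.6 to 59.8 ± 13.5 CPM. The scaffold NOP56 had 328, 332 and 322 CPM in control and 239, 208 and 243 CPM in knockdown libraries (log2 fold change -0.51, SE 0.09, adjusted p = 0.00247, edgeR). Its partner NOP58 stood at 191, 129 and 126 against 127, 133 and 134 CPM, so that only control replicate 1 lay apart, and it had no call in edgeR with all libraries or without the 2 that stood apart. FBL, the methyltransferase, was the most abundant member, at 2792, 3283 and 3332 CPM in control and 2730, 1545 and 2676 CPM in knockdown libraries. Its groups did not overlap, but the call was missing with all libraries (log2 fold change -0.44, adjusted p = 0.119, edgeR) and present without the libraries that stood apart (-0.29). FBL made up 17.8% of all member counts in knockdown replicate 2 and 24.9% to 28.9% in the other libraries. Members together held 1.11% ± 0.0104 of counts in control and 0.969% ± 0.105 in knockdown libraries (SD, n = 3), or 0.801% ± 0.0171 and 0.729% ± 0.0273 without FBL.

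**Figure D3:**
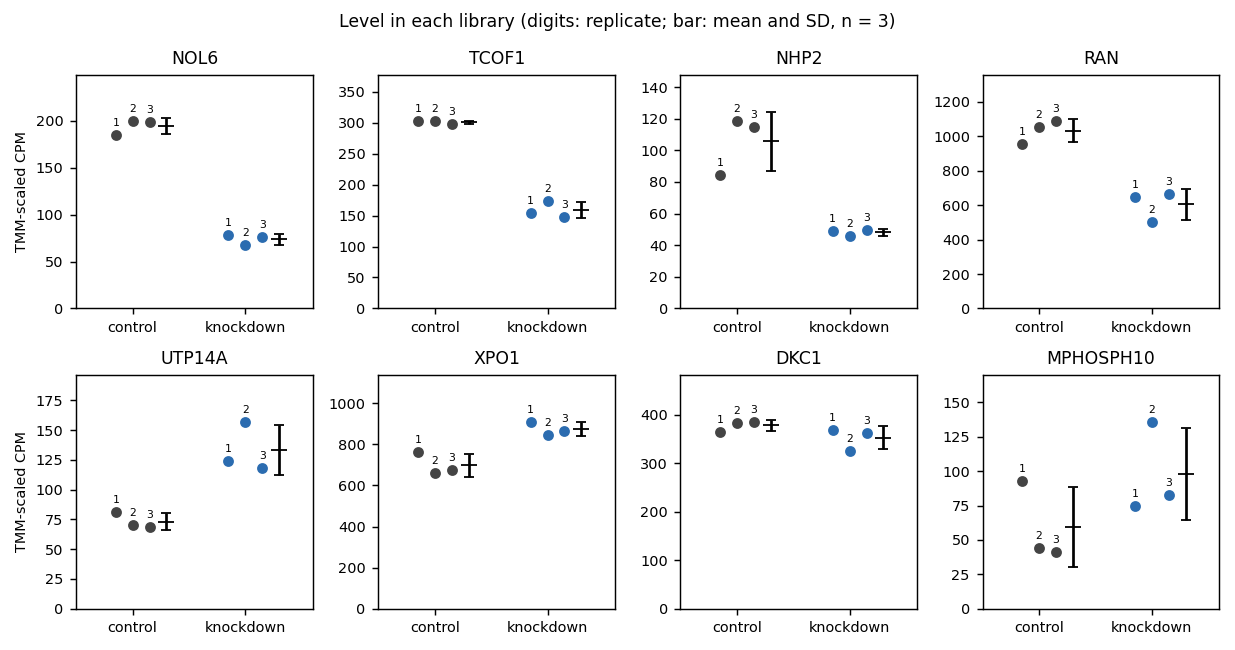
Scaled CPM of 8 members in each library (points, with replicate numbers), with the mean and SD of each group as a bar (n = 3). NOL6, TCOF1, NHP2 and RAN are lower and UTP14A and XPO1 higher in every knockdown library than in any control library, while DKC1 and MPHOSPH10 overlap between groups.

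The small subunit processome forms on the precursor as it is made, and its UTP-A, UTP-B and UTP-C modules join in turn. Over these and the other small subunit factors, 13 of 32 tested members were lower and 1 higher (all genes: 25.1% and 26.7%). Without the libraries that stood apart, 19 were lower and 10 higher (all genes: 36.7% and 36.9%), the higher share being near that of all genes. The widest fall of all members was in the UTP-C subunit NOL6 (ENSG00000165271, chromosome 9, 33461353 to 33473930, minus strand), with 185, 199 and 199 CPM in control and 78.3, 67.2 and 75.9 CPM in knockdown libraries. The groups were far apart, and the knockdown mean was 38.0% of the control mean (log2 fold change -1.40, SE 0.09, adjusted p = 3.81e-05, edgeR). RRP7A, its partner in UTP-C, had 19.6, 24.3 and 23.7 against 11.6, 7.33 and 14.2 CPM (log2 fold change -1.02, SE 0.23). A near-identical pseudogene copy of RRP7A is known, so its level is uncertain. Casein kinase 2, which also belongs to this module, had no called subunit with all libraries: CSNK2A1 was at 369 ± 11.0 and 352 ± 40.3 CPM, with an interval of the log2 fold change from -0.30 to 0.16, and CSNK2A2 at 45.3 ± 1.37 and 43.2 ± 6.99 CPM. Both CSNK2A1 (-0.14) and CSNK2A2 (-0.19) were called lower without the libraries that stood apart. CSNK2A3, a near-identical intronless copy of CSNK2A1, reached at most 6.48 CPM, so reads may be split between CSNK2A1 and CSNK2A3. CSNK2B reached at most 1.27 CPM. Its exons overlap other genes on both strands, so its level is uncertain.

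UTP-B and UTP-A moved differently in their counts of calls, a difference that was not tested. In UTP-B, 5 of 6 subunits were lower and 0 higher (all genes: 25.1% and 26.7%). Without the libraries that stood apart, 5 of them were lower and 1 higher (all genes: 36.7% and 36.9%). UTP18, a WD-repeat subunit, fell from 137 ± 15.5 to 83.2 ± 14.3 CPM, and TBL3 from 45.1 ± 3.61 to 30.1 ± 3.18 CPM. PWP2 fell to 52.5% of its control mean at a low level, 2.64, 2.74 and 3.04 against 1.74, 1.28 and 1.40 CPM. UTP6 and WDR3 changed by -0.37 and -0.32 on the log2 scale, and WDR36 was at 122 ± 9.39 and 129 ± 5.52 CPM without a call (adjusted p = 0.474, edgeR). In UTP-A, which is tied to transcription of ribosomal DNA, 1 of 5 was lower and 0 higher, a lower share near that of all genes. That subunit, UTP4, had 88.6, 93.7 and 89.0 CPM in control and 67.1, 60.6 and 67.7 CPM in knockdown libraries (log2 fold change -0.47, SE 0.09).

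The other UTP-A subunits lay close between groups. HEATR1, its largest protein, had 181, 149 and 143 against 176, 181 and 170 CPM, and its interval ran from -0.09 to 0.41. WDR43 had 182, 135 and 141 against 120, 149 and 112 CPM. Without the libraries that stood apart, WDR43 was lower (-0.25) and HEATR1 (0.25), WDR75 (0.22) and UTP15 (0.33) were higher. With UTP4 that made 2 lower and 3 higher of 5, where all genes gave 36.7% and 36.9%. After removal of the trend with gene length and GC content all 5 UTP-A subunits were below 0, HEATR1 at -0.15, WDR75 at -0.23 and UTP15 at -0.18, and the median of UTP-A turned from 0.12 to -0.23. The 25 tested genes on each side of HEATR1 on chromosome 1 had a median of 0.60, and their part in its value was not tested.

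Of the remaining small subunit factors, TCOF1, the nucleolar protein treacle that links ribosomal DNA transcription to RNA modification, showed the clearest separation. It stood at 302, 302 and 298 CPM in control and 155, 173 and 148 CPM in knockdown libraries, a fall to 52.7% (log2 fold change -0.92, SE 0.09, adjusted p = 0.000183, edgeR). RCL1, known for a role in cleavage of the precursor, fell from 22.1 ± 1.83 to 13.8 ± 1.21 CPM, and NOB1, the nuclease that makes the mature end of the small subunit RNA, from 44.6 ± 1.22 to 28.6 ± 5.14 CPM. IMP4, a partner of MPHOSPH10, changed by -0.42 (SE 0.10). IMP3, of the same trio, changed by -0.64 (SE 0.23, adjusted p = 0.0468, edgeR), but its groups overlapped, at 7.30, 11.8 and 12.4 against 6.61, 5.62 and 7.87 CPM, and 59.3% of its exon bases lie under genes of the other strand. MPHOSPH10 itself was at 92.7, 43.9 and 40.9 against 75.0, 136 and 82.9 CPM, with control replicate 1 above 2 of the knockdown libraries and no call (adjusted p = 0.118, edgeR). Without the libraries that stood apart it was higher (0.90).

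UTP14A, a processome protein that works with the helicase DHX37, was the only called member at least 1.5-fold higher. It had 81.0, 70.4 and 68.3 CPM in control and 124, 157 and 118 CPM in knockdown libraries, with no overlap (log2 fold change 0.86, SE 0.13, adjusted p = 0.0014, edgeR). The gene (ENSG00000156697) lies on chromosome X at 129906121 to 129929761, plus strand. Of the 25 tested genes on each side of it, 88% had a log2 fold change above 0, and their median was 1.32, which exceeds the value of UTP14A. The part of that neighbourhood in the rise was not tested. The remaining members of the group had no call with all libraries: the acetyltransferase NAT10 was at 99.9 ± 7.37 and 96.4 ± 11.9 CPM, the GTPase BMS1 at 122 ± 20.3 and 135 ± 12.4 CPM, and the kinases RIOK1 and RIOK2 had values of 0.24 and 0.25 on the log2 scale.

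RNase MRP cuts the precursor between the small and large subunit parts and shares most proteins with RNase P, which matures transfer RNA. Of its 9 tested proteins, 5 were lower and 0 higher (all genes: 25.1% and 26.7%), with a median log2 fold change of -0.45. At an unadjusted p of 0.05 in edgeR, and with DESeq2, 0 were higher as well. Without the libraries that stood apart, 6 were lower and 0 higher (all genes: 36.7% and 36.9%). RPP40 had 28.8, 31.1 and 32.5 CPM in control and 20.1, 16.1 and 17.7 CPM in knockdown libraries (log2 fold change -0.77, SE 0.12, adjusted p = 0.00127, edgeR). POP4 fell from 82.1 ± 2.94 to 59.9 ± 3.05 CPM and POP1, the largest subunit, from 38.6 ± 2.22 to 28.9 ± 0.619 CPM. RPP25 and POP7 changed by -0.52 and -0.72, and POP7 lost its call when single libraries were left out. RPP30 (46.0 ± 2.3 and 42.1 ± 4.61 CPM) and RPP38 (5.94 ± 0.292 and 7.13 ± 0.843 CPM) had no call.

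Among the 6 nucleases 1 was called lower and 0 higher with all libraries (all genes: 25.1% and 26.7%). Without the libraries that stood apart, 2 were lower and 3 higher, where all genes gave 36.7% and 36.9%. REXO1, an RNA exonuclease, fell to 42.3% of its control mean. Its libraries held 41.4, 37.6 and 35.9 CPM in control and 15.5, 18 and 15.1 CPM in knockdown (log2 fold change -1.24, SE 0.11, adjusted p = 0.000151, edgeR). XRN2, which trims RNA from the 5′ end in the nucleus, was at 237 ± 1.74 and 252 ± 36.4 CPM, the knockdown spread coming from 294 CPM in replicate 2. Its direction turned without that library (log2 fold change -0.04), and it was not called in either case. DROSHA, known chiefly for microRNA processing, was at 101 ± 7.57 and 94.8 ± 18.2 CPM, and was called lower without knockdown replicate 2 (-0.27, adjusted p = 0.0417, edgeR). XRN1, the cytoplasmic counterpart of XRN2, had 52.6, 37.3 and 33.2 against 56.0, 58.4 and 45.8 CPM and overlapped. XRN1 (0.54), REXO2 (0.32) and REXO5 (0.38) were the higher ones in the fit without the libraries that stood apart.

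Large subunit factors gave 3 lower and 0 higher calls of 12, a lower share near the 25.1% of all genes. Without the libraries that stood apart, 6 were lower and 3 higher, where all genes gave 36.7% and 36.9%. In edgeR 1 of these, NVL, was higher at an unadjusted p of 0.05, and with DESeq2 0 were. EIF6, which keeps the immature large subunit from joining the small one, had 83.2, 120 and 125 CPM in control and 64.1, 35.9 and 57.0 CPM in knockdown libraries. The groups did not overlap although control replicate 1 and knockdown replicate 2 were the lowest of their groups (log2 fold change -1.06, SE 0.24, adjusted p = 0.00717, edgeR). SBDS, which removes EIF6 together with the GTPase EFL1 and has a near-identical pseudogene, fell from 89.3 ± 2.33 to 69.5 ± 6.54 CPM, and GNL3, the nucleolar GTPase nucleostemin, from 186 ± 22.8 to 150 ± 3.01 CPM. Both calls were lost when some single libraries were left out (adjusted p from 0.0510 to 0.115, edgeR). EFL1 was at 47.1 ± 7.46 and 43.6 ± 2.57 CPM, and LSG1, the GTPase that frees the export adaptor NMD3, at 155, 144 and 144 against 147, 144 and 143 CPM, with an interval from -0.21 to 0.15. MDN1, the giant ATPase that remodels the large subunit, was at 152 ± 21.2 and 166 ± 23.4 CPM. NMD3, the export adaptor, was at 105 ± 22.9 and 124 ± 3.83 CPM, and was called higher without the libraries that stood apart (0.46).

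Export factors split in direction. RAN, the GTPase that drives nuclear transport, was the second most abundant member per deposited length, at 215 ± 12.8 FPKM in controls. It fell from 957, 1055 and 1086 CPM to 648, 503 and 664 CPM, and every knockdown library lay below every control (log2 fold change -0.77, SE 0.12, adjusted p = 0.00177, edgeR). XPO1, the exportin that carries both subunits, stood at 761, 660 and 673 CPM in control and 910, 844 and 866 CPM in knockdown libraries. The groups did not overlap (log2 fold change 0.32, SE 0.09, adjusted p = 0.0188, edgeR), but 4 of the 6 fits that left out a library ended the call, namely those lacking a library other than control replicate 1 and knockdown replicate 2 (adjusted p 0.0564 to 0.0961). The value was -0.29 after removal of the trend with gene length and GC content. NXT1, a cofactor of messenger RNA export, changed by -0.53 (SE 0.19, adjusted p = 0.0452, edgeR), and its call was lost in 4 of the 6 fits that left out a library (adjusted p 0.0545 to 0.138). NXF1, its partner, was at 73.5 ± 2.04 and 62.5 ± 11.0 CPM and overlapped (adjusted p = 0.161, edgeR). Without the libraries that stood apart, NXF1 (-0.38) was called lower and NXT2 (0.15) higher. That made 3 lower and 2 higher of 5 export factors, where all genes gave 36.7% and 36.9%.

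Members differed among themselves along with base composition. Across the 72 tested members, the log2 fold change and the GC content of the longest annotated transcript had a Spearman correlation of -0.55, and across all 12274 tested genes with a GC value -0.39, as descriptions over genes that share the same 6 libraries. The 28 lower members had a median GC content of 52.5% and the other 44 of 44.9%, against 48.2% for all tested genes. After the trend with length and GC content was removed, the median of the members was -0.27 and all 28 lower members remained below 0, between -1.13 and -0.08. NOL6 was then at -1.13, RAN at -0.91, RPP40 at -0.85, TCOF1 at -0.78 and REXO1 at -0.77, while POP7 (-0.25), TBL3 (-0.21), IMP4 (-0.16), NXT1 (-0.12) and RPP25 (-0.08) moved closest to 0.

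The libraries that stood apart often did so in the same direction. Over all tested genes, their deviations from the group mean of log2 CPM had a correlation of 0.45, so this was not particular to the members. The following counts were made for the members alone, with no share over all tested genes. Control replicate 1 was above both other controls in 33 members and below both in 35. Relative to the mean of the other 2 libraries of its group, 28 members were above in both control replicate 1 and knockdown replicate 2, and 29 were below in both. These ratios had Spearman correlations with log2 length of 0.50 and 0.43 over the 72 members (0.36 and 0.31 over all tested genes), a description only. MPHOSPH10 was 2.18 times the other controls in control replicate 1 and 1.72 times the other knockdown libraries in knockdown replicate 2. NOP10 was at 0.634 and 0.540 times and EIF6 at 0.679 and 0.592 times. Mitochondrially encoded genes took 10.4% of the counts of knockdown replicate 2 and 4.72% to 6.86% of those of the other libraries, and the part of this in the member values was not tested.

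**Figure D4:**
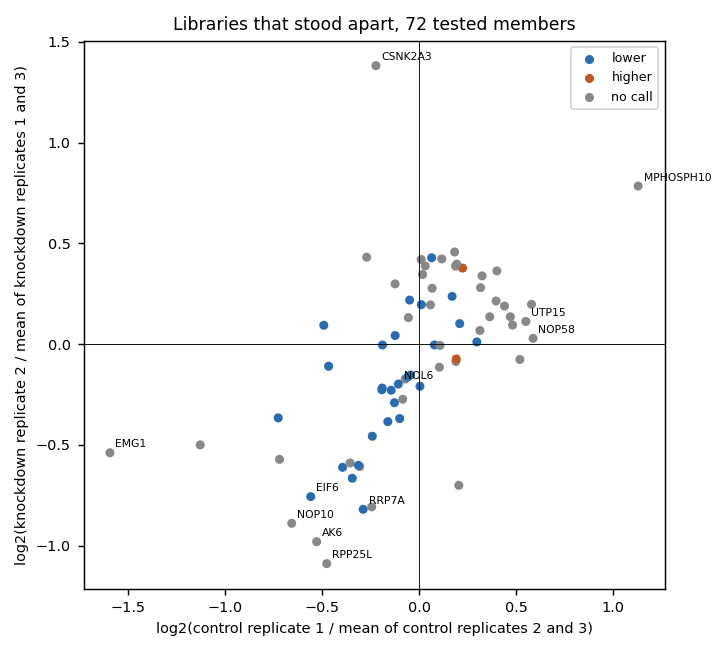
For each tested member, log2 of control replicate 1 over the mean of control replicates 2 and 3 (x axis) against log2 of knockdown replicate 2 over the mean of knockdown replicates 1 and 3 (y axis). Of 72 members, 28 lie above 0 on both axes and 29 below 0 on both. Such counts were not made over all tested genes.

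The members are mostly nucleolar by the deposited annotation: 57 of 77 (74.0%) carry the nucleolus term, against 6.48% of tested genes. They lie on 22 chromosomes. Per deposited length, mean control levels ran from 1424 ± 129 FPKM for FBL and 215 ± 12.8 for RAN to 0.231 FPKM for CSNK2B among tested members. Exons of AK6 (24.5% shared with genes such as TAF9 on the same strand), EIF6 (17.4%, same strand), EMG1 (49.5%, opposite strand) and TBL3 (29.9%, opposite strand) overlap other genes. As the strand setting is not given in the sources used here, their levels are uncertain.

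Genes of ribosome biogenesis outside the pathway annotation gave further values. Of 125 tested genes on 4 such lists, 68 were lower (all genes: 25.1%) and 9 higher (all genes: 26.7%), with a median log2 fold change of -0.41. The fit without the libraries that stood apart gave 92 lower (all genes: 36.7%) and 23 higher (all genes: 36.9%). Large subunit assembly factors were lower in 32 and higher in 4 of 55, and in 42 and 8 without the libraries that stood apart. PES1, a subunit of the PeBoW complex, fell from 211 ± 13.3 to 87.7 ± 6.68 CPM, the methyltransferase FTSJ3 from 156 ± 5.25 to 61.6 ± 4.35 CPM and the histone-binding protein GRWD1 from 102 ± 5.17 to 44.0 ± 2.58 CPM (SD, n = 3). Small subunit factors were lower in 19 and higher in 2 of 35, and in 26 and 6 without the libraries that stood apart. NOC4L fell from 27.3 ± 0.814 to 11.5 ± 0.990 CPM, ABT1 from 64.4 ± 3.24 to 28.7 ± 4.24 CPM and the helicase DHX37 from 71.2 ± 5.08 to 37.3 ± 2.85 CPM.

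For RNA polymerase I, which makes the precursor, and its factors, 9 of 20 genes were called lower and 3 higher (all genes: 25.1% and 26.7%). Leaving out the libraries that stood apart gave 12 lower and 6 higher (all genes: 36.7% and 36.9%). The largest subunit POLR1A fell from 340 ± 25 to 211 ± 2.97 CPM and POLR1G from 17.0 ± 2.27 to 8.68 ± 0.410 CPM, while TAF1A, of the promoter selectivity factor, rose from 8.97 ± 0.374 to 15.2 ± 1.19 CPM. The list of nucleolar hub proteins and assembly chaperones was lower in 8 and higher in 0 of 15 in edgeR (all genes: 25.1% and 26.7%). The 8 include 1 gene of another kind, not reported here. Of the 15, 1 was higher at an unadjusted p of 0.05 in edgeR and 1 with DESeq2. The lower ones included the histone chaperone NPM3 (67.6 ± 9.41 to 26.9 ± 7.31 CPM) and RUVBL2, an ATPase of snoRNP assembly (186 ± 12.7 to 106 ± 17.1 CPM). On this list, 12 of the 15 were lower and 3 higher without the libraries that stood apart (all genes: 36.7% and 36.9%).

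**Figure D5:**
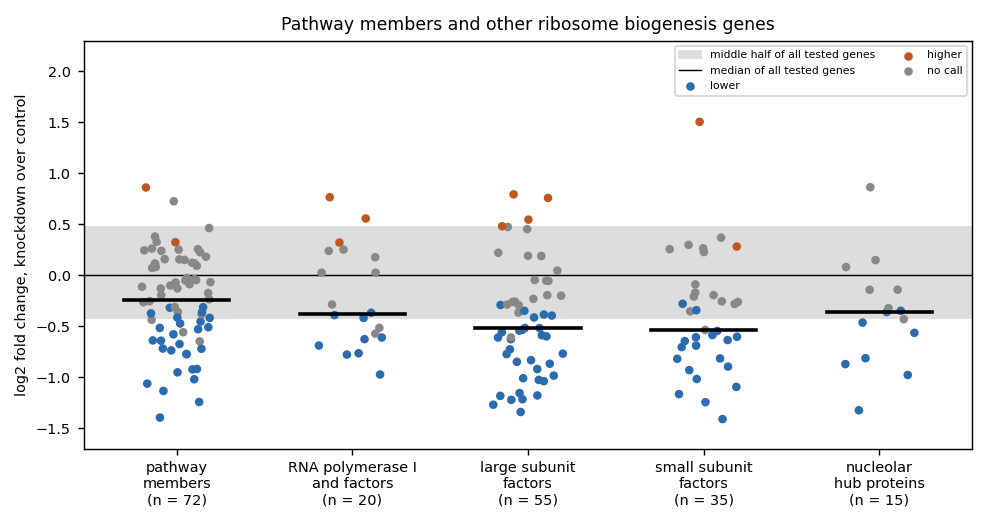
Log2 fold change (y axis) of the tested pathway members and of genes on 4 other ribosome biogenesis lists, with the list median as a bar. List medians are -0.25 for members, -0.38, -0.52, -0.54 and -0.36 for the others from left to right, against 0.00 for all tested genes, whose middle range is shaded.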

How the data were processed

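The authors deposited whole-number read counts and FPKM values per gene, per the file headers. Not given in the sources used here are the aligner, counter, build, annotation and strand. Recomputing FPKM from counts, lengths and column totals gave the deposited values within 2.29e-05%. GC content is that of the longest GENCODE 29 transcript. Of 19852 identifiers in GENCODE 29, 79.0% shared a start or end with GRCh38. Counts were filtered with filterByExpr (12292 genes left), scaled by TMM and tested with edgeR 4.0.16 (R 4.3.3) without covariates. The biological coefficient of variation was 14.2%. Standard errors were derived from the F statistic. Alternatives used limma 3.58.1, DESeq2 1.42.0 and mgcv 1.9.3.

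Members, role groups, lists, motifs and tests were chosen with earlier results of these data known. Named genes are, per role, up to 3 lower and 2 higher called members by adjusted p, or the 2 of highest mean where fewer than 2 were called. Added were the 5 largest falls and rises, the 3 highest in FPKM, SHMT2, and 3 called genes per other list. Of these 1 gene, and of the cell type markers 1, is not reported here. Other members were named after their values were seen. The alternative without control replicate 1 and knockdown replicate 2 together was added after the data were seen.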

Additional observations from a re-analysis of the deposited data

How the results depend on the processing

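The count of lower members (28) stayed between 21 and 31 in every alternative except the fit without control replicate 1 and knockdown replicate 2, where it was 42. The count of higher members (2) was 1 to 11 when each library was left out, 18 without those 2 libraries, 4 with limma on log2(FPKM + 1) and 1 at an adjusted p of 0.01. Higher genes on the wider lists (9) were 2 to 17 when each library was left out, and 23, 18 and 2 under the same 3 changes, and 18 with library size alone. The median log2 fold change of members (-0.25) was -0.27 to -0.20 when each library was left out, -0.23 without both, -0.26 with upper-quartile scaling, -0.16 with library size alone (which moved the median of all genes to 0.09), -0.22 without a filter, -0.20 with limma-voom, -0.11 with FPKM and -0.27 with the length and GC trend removed. The median of all tested genes also moved, to 0.03 without a filter and 0.05 with limma on log2(FPKM + 1). The share of counts in members in controls was 1.18% outside mitochondrially encoded genes. XRN2 turned from 0.09 to -0.041 without knockdown replicate 2 and -0.022 without both, within a range of -0.041 to 0.17 when each library was left out. The cause of these changes was not tested.

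Of 522 values of the 29 named members under alternatives, 488 kept direction and call, 26 lost and 6 gained the call, and 2 reversed. Those values leave out the removal of the length and GC trend, which has no test and turned 3 of the 29: XPO1 (0.32 to -0.29), HEATR1 (0.16 to -0.15) and XRN2 (0.09 to -0.034). With the replicate block, 25 members were lower and 2 higher, the median was -0.22 and 1 named call (GNL3) was lost. Same-numbered libraries had residual correlations over all tested genes of -0.30, -0.28 and 0.30, so the numbers did not pair them. Only the libraries numbered 3 correlated best with their own number. The largest correlation of a control with a knockdown library, 0.45, was between control replicate 1 and knockdown replicate 2.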
